A study of Drosophila melanogaster with 65 samples.

Results

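The genes described here lie inside the pericentric heterochromatin of chromosome arms 2L, 3L and 3R of Drosophila melanogaster. A gene was taken when its annotated start lay at or beyond 22.3 Mb on 2L or 23.0 Mb on 3L, or its annotated end before 4.2 Mb on 3R. It also had to have at least 10 uniquely mapped sense reads in at least 3 of 24 long RNA libraries, and AGO3 and the cytoplasmic ribosomal protein genes RpL10, RpL15 and RpL5 were left out by name. Of the 16369 genes in each table, 68 met this rule, 16 on 2L, 37 on 3L and 15 on 3R. A further 17 genes inside the bounds stayed below the read minimum. The same minimum was met by 13586 other genes, which serve as the comparison set. The genes were thus selected on position and on their read counts in these libraries, and nothing is drawn below from their being transcribed.

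Pericentric heterochromatin is the compact, repeat-rich chromatin that flanks the centromeres. It carries the histone mark H3K9me3, to which the protein HP1 binds, and it silences most euchromatic genes that are moved next to it. The genes that reside there are the known exception: light (lt) and several others depend on a heterochromatic setting for their normal activity, and many have very long introns filled with transposon remnants. In follicle cells of the ovary, Piwi, guided by small RNAs, directs the same mark to transposons.

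Long RNA was sequenced from OSS cells, a cell line of somatic sheath cells of the ovary, and from whole ovaries. The OSS cells had received siRNA against traffic jam (siTj), piwi (siPiwi) or cubitus interruptus (siCi), with siRNA against GFP (siGFP) as the control, in 3 libraries each. The 6 fly lines FITS, FlamBG, FlamKG, FPSE1, FPSE2A and FPSE2B each gave 1 mutant and 1 wild-type ovary library, and the series describes mutant strains with new deletions in the promoter region of flamenco, the main piRNA cluster of follicle cells. What each line carries, and the flies' ages, are not given in the sources used here. H3K9me3 and H3K4me3 were profiled by Cut&Run in OSS cells given siTj or siGFP (1 library each) and in 2 untreated libraries. Nothing in the labels says that the replicates are separate cultures, and a p-value below covers only the spread among these libraries, which may be technical. In bulk RNA, fewer cells of a type and less RNA per cell cannot be told apart.

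The libraries held 9075806 to 81892058 unique sense reads. The siRNA targets were measured first. The tj level was 569, 218 and 594 CPM (reads scaled to library size by TMM within each fit) in siTj cells and 2032, 1105 and 1212 CPM in siGFP cells. The piwi level was 113, 34.2 and 118 CPM in siPiwi cells and 721, 661 and 902 CPM in siGFP cells. The ci level was 41.9, 61.6 and 72.4 CPM in siCi cells and 116, 122 and 182 CPM in siGFP cells. The groups did not overlap for any of these 3 targets. With the replicates blocked by number, edgeR gave adjusted p-values of 0.020 for tj, 0.054 for piwi and 0.920 for ci, so only tj passed 0.05. Knockdown values are given from a fit without and one with the replicate number of the libraries as a block. Markers of muscle (Mhc, up, Act57B) summed to 111 to 196 CPM in siTj cells and 9.28 to 37.0 CPM in siGFP cells. The collagen IV genes Cg25C and vkg, with the hemocyte gene Hml, summed to 227 to 481 CPM in siTj cells and 18.9 to 81.3 CPM in siGFP cells. With the block, edgeR called Cg25C and vkg higher in siTj cells but not Hml, and all 3 had a positive log2 fold change. Of the 3 muscle markers it called Act57B alone, and all 3 were positive. Whether these sums reflect muscle or hemocyte content was not tested. The sum of 4 small heat shock and Hsp70-family genes was 909 to 10977 CPM in siTj cells and 238 to 326 CPM in siGFP cells. The heat shock sum was 280 to 5932 CPM in siPiwi cells and 265 to 2880 CPM in siCi cells. The sum of Cg25C, vkg and Hml reached 217 CPM in siPiwi cells and 75.2 CPM in siCi cells. The part of all these markers in the results below was not tested.

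The pericentric genes were long, but their transcripts were not. Their median locus spanned 7.23 kb, against 2.26 kb for the other genes, while the median summed length of the exon parts was 1.71 kb, against 1.74 kb. Loci longer than 100 kb made up 13.2% of the pericentric genes (9 of 68) and 0.589% of the other genes (80 of 13586). The longest was Myo81F, an unconventional myosin gene, which occupies 3R:567076-2532932. It was followed by Pzl, a relative of the mechanosensitive channel gene Piezo, at 3R:2554162-3263582, and by CG45782, a transporter gene called lovit in RefSeq, at 3L:25236940-25670980. In OSS cells, the median share of unique sense reads that fell outside exon parts was 21.6% for pericentric genes and 0.0% for other genes. This share was set to 0.0% wherever the exon parts together held as many reads as the locus or more, so 0.0% is a lower limit of the measure. Over 10% of the reads mapped to several positions in 31 of the 60 pericentric genes with enough reads (51.7%), against 6.77% of other genes. A CR symbol, used for noncoding genes, was carried by 10 of the 68. Positions are in the Release 6 assembly, judged from the match with RefSeq, where 63 genes had the same start and end. Just inside the bounds lay CG17018 on 2L (start 22308755), CkIIalpha on 3L (start 23097072) and Dsk on 3R (end 4190260). Just outside lay Tif-IA (start 22249876), nrm (start 22998372) and beta-Man (end 4204572). At the read minimum, CR43967 and Dsk passed with 3 libraries, and CR45159 and CR45181, with 1 library each, did not.

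H3K9me3 covered this set densely in OSS cells. At least 1 summit of the mark lay inside the locus of 34 of 68 pericentric genes in siTj cells, 42 in siGFP cells, and 42 and 34 in the untreated libraries. In siGFP cells that was 61.8% of the set. Of the other genes, 5.08%, 11.3%, 11.7% and 8.32% held a summit in the same order of libraries. Per 10 kb of locus the pericentric genes had 2.87, 4.41, 4.09 and 2.95 summits in the same order, and the other genes 0.291, 0.796, 0.802 and 0.487. Thus 68 genes held 15.5%, 12.5%, 11.9% and 12.7% of all summits in the lists. With 1 siTj and 1 siGFP library the difference between them has no replicate check. The siTj list was also shorter as a whole, with 8829 summits against 16939 for siGFP, and untreated lists of the same cells held 16420 and 11124.

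The longest loci held the most summits. Myo81F held 482 summits in siTj cells, 814 in siGFP cells, and 759 and 503 in the untreated libraries. Pzl held 204, 323, 315 and 212, CG45782 180, 219, 197 and 157, CG40178 (the vital locus l(3)80Fg in RefSeq) 70, 98, 103 and 78, and Snap25, a SNARE of synaptic vesicle fusion, 79, 109, 94 and 86 in the same order. In each of these 5 the siTj count was below the siGFP count, and untreated 2 was also below untreated 1. Among all 68 genes the siTj library had fewer summits than siGFP in 31, more in 4 (CG17493, CR46123, Cht3 and cta) and an equal number in 33. The equal ones include 21 loci with no summit in any library. These counts were not made for the other genes, and the siTj list was shorter as a whole. The 68 genes held 15.5% of the siTj list and 12.5% of the siGFP list, and the other genes 27.8% and 39.6%.

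Not every locus in the bounds held a summit of the mark. No summit was found in any of the 4 libraries in 21 of the 68 loci, among them the 7.59 kb locus of Set1, a histone H3K4 methyltransferase, and the 6.77 kb locus of Slmap, a component of the STRIPAK phosphatase complex. The splicing factor gene Spf45 and the mitochondrial import gene Tim23 had none either. The light locus, which encodes a Vps41 protein of vesicle trafficking to the lysosome, carried 5, 9, 8 and 9 summits over 18.3 kb. Genes with a summit in both untreated libraries (34) had a median locus of 24 kb, and genes with none in either (26) one of 1.34 kb.

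**Figure D1:**
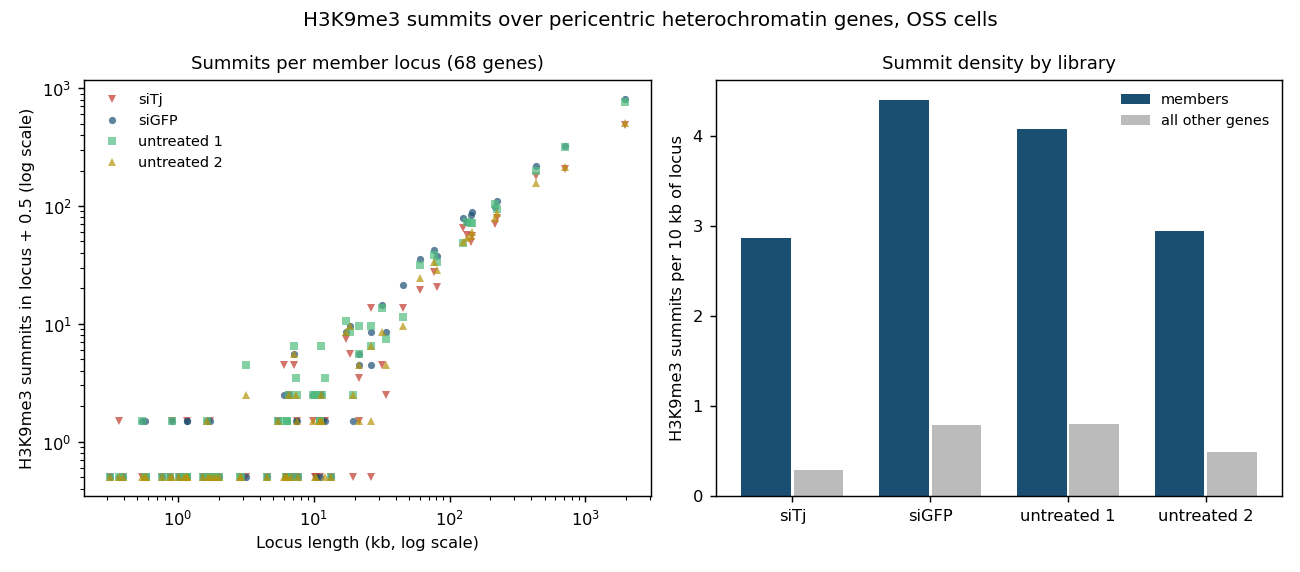
Left, H3K9me3 summits inside each of the 68 loci (plus 0.5, log scale) against locus length in kb (log scale), with 1 symbol per library. Right, summits per 10 kb of locus in the pericentric genes (dark) and in all other genes (grey) by library. The pericentric bars stand at 2.87, 4.41, 4.09 and 2.95 and the grey bars at 0.291, 0.796, 0.802 and 0.487.

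H3K4me3, the mark of active gene starts, was found at these genes at shares within 7 percentage points of those of other genes. A summit lay within 1 kb of the annotated start of 14 of 68 genes in siTj cells (20.6%, against 24.4% of other genes), 31 in siGFP cells (45.6% against 42.3%), and 35 and 27 in the untreated libraries (51.5% against 44.8%, and 39.7% against 41.5%). The 27 genes marked in both untreated libraries had a median exon level of 21.4 CPM per kb of exon in siGFP cells, and the 32 genes marked in none of the 4 libraries had 0.0513 CPM per kb. Some genes carried both marks: 10 had H3K9me3 in the locus and H3K4me3 at the start in both untreated libraries, and 13 had H3K4me3 at the start and no H3K9me3 in either. Peaks of the TJ protein lay inside the locus of 1 of 68 pericentric genes, Snap25, against 1488 of 13586 other genes, and within 1 kb of the start of 0 of 68, against 8.33% of the other genes (1132 of 13586).

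Levels of these genes in OSS cells spanned a wide range. Per kb of exon, Tim17b, a mitochondrial import gene, stood highest with 512.2 CPM per kb in siGFP cells, followed by CG12567 with 176 and the splicing gene CG17454 (Spf30 in RefSeq) with 118. Dbp80, an RNA helicase gene of mRNA export with a 143 kb locus, had 99.96 CPM per kb. The genes vtd, the cohesin subunit Rad21, and cta, a G protein alpha subunit of gastrulation, had 15.1 and 8.07, and lt had 7.90 CPM per kb. At the low end, CG40298, CR43967, CG45782, CG41284 and scro had no exon read in any siGFP library.

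Set against wild-type ovary, siGFP OSS cells had less RNA from most pericentric genes. Of 62 tested, 42 were lower and 1 was higher past an adjusted p of 0.05 in edgeR's quasi-likelihood test. Among all 11753 genes tested, 23.9% were lower and 19.5% were higher. The groups did not overlap for 39 of the 62 genes, Snap25 above and 38 below, against 19.1% of all genes above and 22.4% below. The median log2 fold change of the pericentric genes was -2.50, and that of all genes was -0.28. When reads of all positions were counted, 34 of 64 were lower and 3 were higher, with a median of -1.63. Among all 11950 genes tested in that fit, 3015 were lower and 2204 were higher, with a median of -0.33. Restricted to exon parts, 42 of 59 were lower and 0 were higher, with a median of -3.38, against 23.3% lower and 21.7% higher among all genes. A gene that passed the read minimum through the ovary libraries alone had to be lower in OSS cells. Among the 37 genes with at least 10 reads in all 24 libraries, 24 were lower (64.9%), against 21.2% of the 6991 other genes with as many reads, and the median was -2.17 against -0.06. The medians of this comparison ranged from -3.16 to -2.13 when each library was left out in turn. Germline markers (vas, nos, osk, aub, rhi) summed to 22.3 to 66.0 CPM in siGFP cells and 1441 to 4993 CPM in wild-type ovary, and somatic markers (tj, fs(1)Yb, flam) to 1727 to 2744 CPM in siGFP cells and at most 520 CPM in wild-type ovary. Muscle markers, too, were at 8.43 to 36.9 CPM in siGFP cells and 177 to 2216 CPM in wild-type ovary. Tissue, cell line and library set cannot be told apart here, and the part of these cell types was not tested.

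The 5 called genes with the lowest log2 fold changes were CG40298, CG40472, CG17018, MED21 and FASN3, with CPM here on the scale of the fit of these 9 libraries. CG40298 and CG40472 had 10 reads in only 13 and 12 of the 24 libraries, so they met the read minimum mainly through the ovaries. CG40298 had 0 reads in the 3 siGFP libraries and 2.48 to 19.4 CPM (median 7.52) in the 6 wild-type ovaries. Against a floor of 3 reads over the siGFP group this is at least 344-fold lower in siGFP cells. CG40472 had 0.112, 0.155 and 0.0 CPM in siGFP cells and 14.8 to 289 CPM (median 52.7) in wild-type ovary. In siGFP cells 99.9% of its reads over all positions were not unique, against 76.8% in wild-type ovary. The size of its change thus depends on which reads are counted. CG17018, called Marf1 in RefSeq, had 1.69, 8.06 and 2.37 CPM in siGFP cells and 527 to 940 CPM (median 554) in wild-type ovary, with a log2 fold change of -7.27 (SE 0.64). MED21, a Mediator subunit gene, had 0.112, 1.07 and 8.93 CPM in siGFP cells and 133 to 1445 CPM (median 235) in wild-type ovary. FASN3, a fatty acid synthase gene, had 0.225, 0.945 and 0.160 CPM in siGFP cells and 14.9 to 118 CPM (median 57.6) in wild-type ovary. In each of these 5 genes the siGFP libraries lay below all 6 ovaries.

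The classical loci of heterochromatin were lower by less than these 5. The lt level was 31.4, 30.7 and 70.5 CPM in siGFP cells and 75.2 to 194 CPM (median 127) in wild-type ovary. Its groups did not overlap, and its log2 fold change was -1.54 (SE 0.39) at an adjusted p of 0.0083 in edgeR. For cta the values were 27.2, 20.4 and 42.5 CPM in siGFP cells and 80.8 to 191 CPM in wild-type ovary, a log2 fold change of -1.96 (SE 0.39), and for vtd it was -2.34 (SE 0.54). Parp, which encodes poly(ADP-ribose) polymerase, gave -1.44 (SE 0.41), but 0.53 with reads of all positions, where 89.2% of its reads in siGFP cells and 63.1% in wild-type ovary were not unique. Set1 gave -1.06 (SE 0.26), CG17490 gave -1.51 (SE 0.44) and the noncoding CR46268 gave -1.15 (SE 0.41). CR46268 overlaps CG17490 on the same strand, so their reads cannot be told apart. Among genes of basic cell functions, CkIIalpha, ND-AGGG, ND-MLRQ, UQCR-11 and Vps11 lay below every wild-type ovary in all siGFP libraries. In siGFP cells 93.9% of the ND-AGGG reads over all positions were not unique, against 62.7% in wild-type ovary. The size of the ND-AGGG change may thus depend on which reads are counted. Most UQCR-11 reads lay outside exon parts in both groups. Over exon parts UQCR-11 had 1.24 to 8.35 CPM in siGFP cells and 39.2 to 423 CPM in wild-type ovary. Slmap, Spf45, Tim23, Tim17b and CG17454 were named for the highest siGFP levels per kb of locus, a choice that favours a small loss. These genes, alpha-Cat and Dbp80 did not pass the test. The log2 fold change was -0.25 (95% interval -0.90 to 0.40) for alpha-Cat, which links cadherins to actin, -0.02 (-0.61 to 0.57) for Slmap, -0.08 (-1.43 to 1.28) for Spf45, -0.51 (-1.15 to 0.13) for Tim23, 0.84 (-0.11 to 1.78) for Tim17b, -1.14 (-2.39 to 0.11) for Dbp80 and -2.23 (-4.43 to -0.03) for CG17454.

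Reads of the ecdysone synthesis genes lay mostly outside exons in siGFP cells, 88.4% of 121 for nvd and 98.0% of 150 for spok. Neverland (nvd), which converts cholesterol in the first step of the pathway, had 1.01, 1.67 and 0.399 CPM in siGFP cells and 10.1 to 41.6 CPM (median 32.7) in wild-type ovary. Its log2 fold change was -4.77 over the locus (SE 0.68) and -6.59 over exon parts (SE 0.93), both past the threshold. With reads of all positions it was 0.17, and 99.2% of its reads in siGFP cells and 76.0% in wild-type ovary were not unique, so its direction depends on which reads are counted. Spookier (spok), a cytochrome P450 gene of the same pathway in larval glands, had 1.35, 1.56 and 1.25 CPM in siGFP cells and 0.541 to 2.51 CPM in wild-type ovary, which overlapped. Among the metabolic and translation genes, Gfat1, of hexosamine synthesis, and eIF-4B were lower in siGFP cells, with log2 fold changes of -3.84 (SE 0.80) and -4.87 (SE 0.85). For eIF-4B the value was 0.17 with reads of all positions, and 99.95% of its reads in siGFP cells and 98.3% in wild-type ovary were not unique.

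Snap25 was the 1 gene higher in OSS cells, and it was so over its locus only. It had 370, 634 and 1036 CPM in siGFP cells and 15.7 to 44.4 CPM (median 29.5) in wild-type ovary, a log2 fold change of 4.47 (SE 0.37). Over exon parts the same libraries had 1.13, 3.06 and 4.76 CPM, against 0.295 to 9.16 CPM, and the log2 fold change was 0.70 (SE 0.89) with an adjusted p of 0.551 in edgeR. In siGFP cells 99.5% of its unique sense reads lay outside exons, 91.1% of its reads over all positions were not unique, and 21.6% of unique reads were antisense. Its locus, 3L:24074180-24299205, is the one with the TJ peaks, 2 in number, none within 1 kb of the start.

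**Figure D2:**
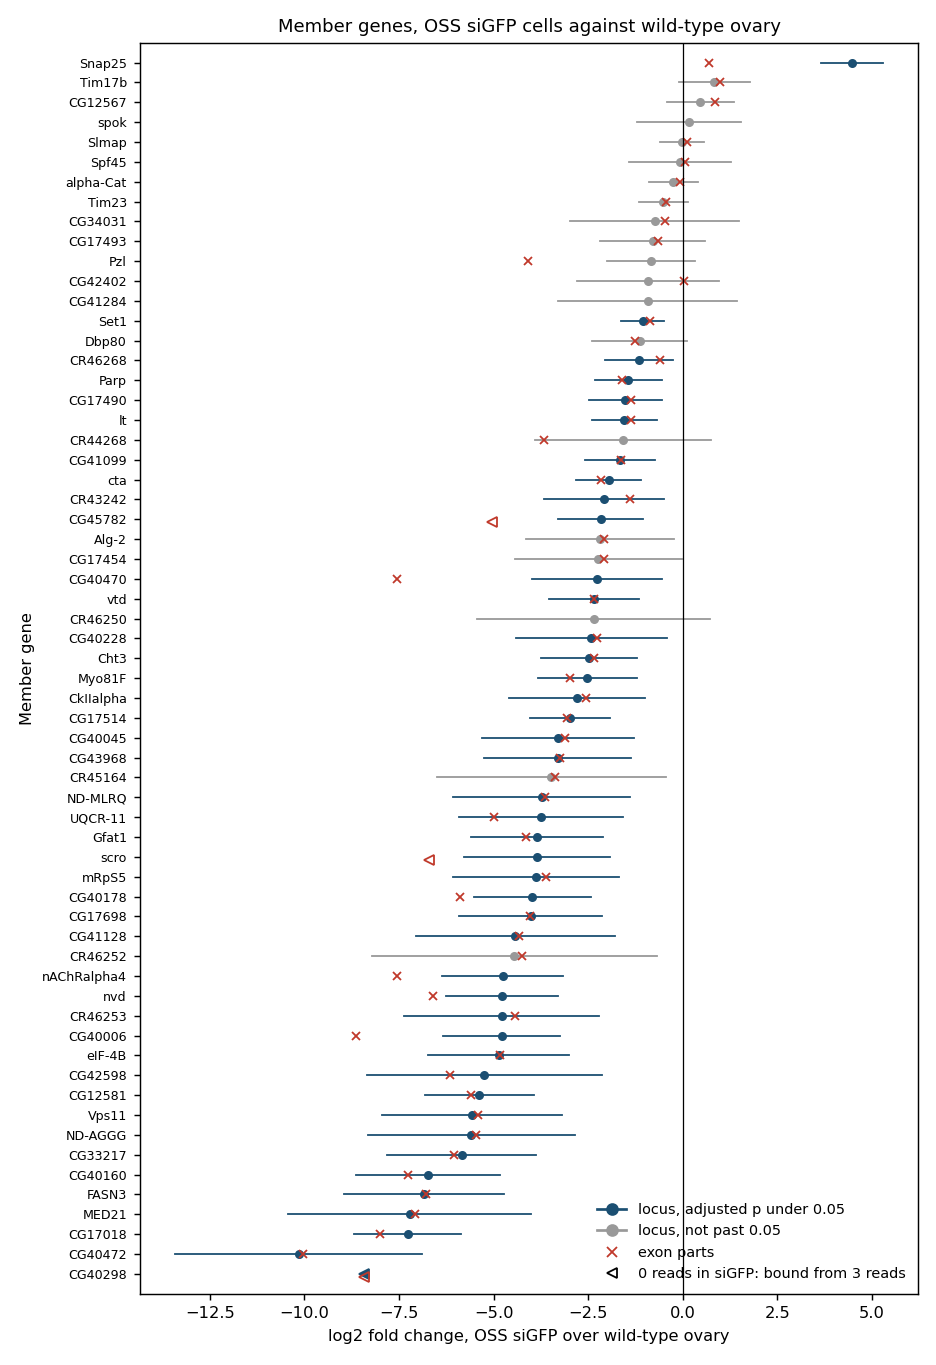
The log2 fold change of each of the 62 tested genes, siGFP OSS cells over wild-type ovary, from reads over the whole locus (dots with 95% intervals) and over exon parts (crosses). Triangles mark genes with 0 siGFP reads, drawn at the bound that 3 reads give. Most dots lie left of 0, around the median of -2.50, and Snap25 at 4.47 has its cross at 0.70.

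Reads over the long loci set libraries siTj 2 and siPiwi 2 apart from the other OSS libraries. Across the 68 genes, 41.2% of unique reads in siTj 2 and 47.4% in siPiwi 2 were antisense, against 3.11% to 15.9% in the other 10 OSS libraries. Over all genes these libraries also had the highest antisense shares, 9.27% and 12.4%. For the 12 loci longer than 50 kb, reads outside exons summed to 1647 CPM in siTj 2 and 2475 CPM in siPiwi 2, while their exon parts held 169 and 109.5 CPM, inside the range of the other libraries, whose lowest was 113 and highest 468 CPM, except that siPiwi 2 was just below it. The antisense sum was 2008 CPM in siTj 2 and 3041 CPM in siPiwi 2, and 111 to 437 CPM in the other 10. Among 283 other genes with loci that long, the antisense share was 23.0% in siTj 2 and 27.8% in siPiwi 2, against 9.52% to 11.6% in the other libraries. The share for the long pericentric loci was 52.5% and 54.1%, against 9.15% to 29.5%.

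Single genes show the pattern plainly. Myo81F had 10.9, 411 and 9.62 CPM in siTj cells, 10.6, 595 and 13.3 CPM in siPiwi cells, 13.9, 62.5 and 11.7 CPM in siCi cells, and 13.0, 48.4 and 16.1 CPM in siGFP cells. On the antisense strand it had 417 CPM in siTj 2 and 587 CPM in siPiwi 2. Pzl had 10.6, 208 and 8.64 CPM in siTj cells, 4.05, 302 and 13.2 CPM in siPiwi cells, 19.2, 33.6 and 10.6 CPM in siCi cells, and 22.3, 28.6 and 20.002 CPM in siGFP cells. In both genes, siTj 2 and siPiwi 2 stood far above all other libraries, and within siCi and siGFP the library numbered 2 was the highest. The annotated exon parts of Myo81F in the tables span 280 bases with no coding length, so its exon level cannot be read here.

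**Figure D3:**
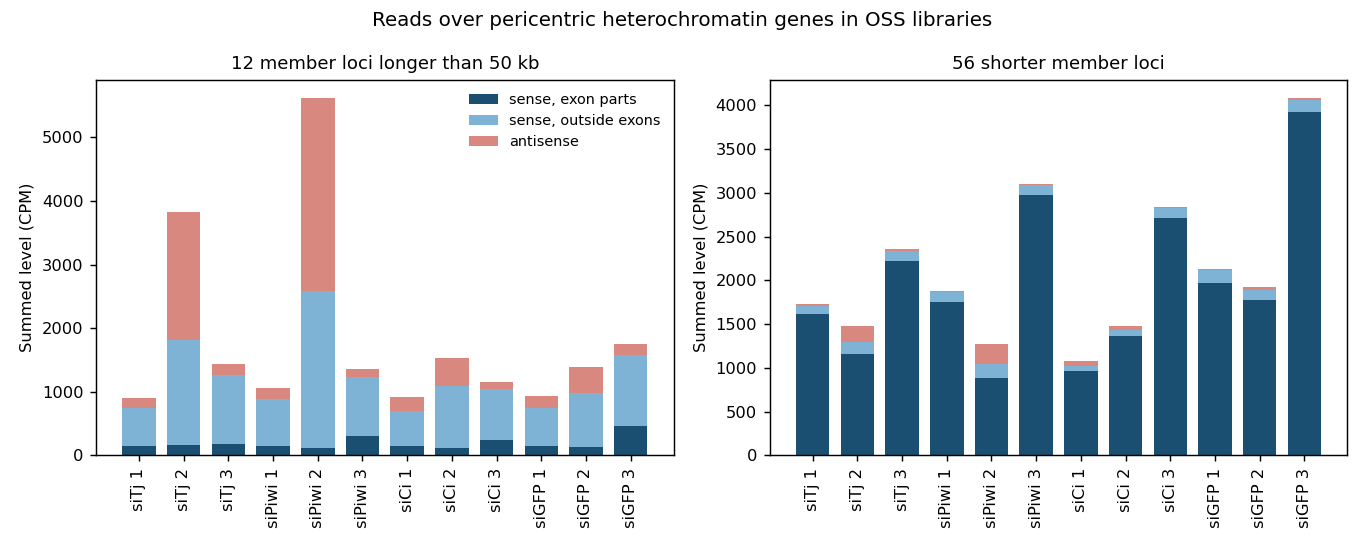
Summed level in CPM over the 12 loci longer than 50 kb (left) and the 56 shorter loci (right) in each OSS library, split into sense reads in exon parts, sense reads outside exons and antisense reads. Libraries siTj 2 and siPiwi 2 have the tallest bars on the left, with 2008 and 3041 CPM of antisense reads, and the libraries numbered 3 are the highest of their group on the right.

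No pericentric gene passed an adjusted p of 0.05 in edgeR after knockdown of traffic jam. Of 10724 genes tested without the block, 0.0466% were called, 0 of 53 pericentric genes among them. At an unadjusted p under 0.05 there were 7.35% of all genes and 0 of the 53. DESeq2 called 2.45% of all genes and 0 of the 53. With the replicates blocked by number, 3.52% of all genes and 0 of 53 pericentric genes were called by edgeR, and 6 of the 53 had an unadjusted p under 0.05, against 19.9% of all genes. DESeq2 with the block called 13.2% of all genes and 1 pericentric gene, Slmap (lower). The median log2 fold change of the pericentric genes was -0.30 with the block, and that of all genes was 0.02. Without the block it was -0.34 against 0.08, with 19 of 53 positive against 53.6% of all genes, and the sign rests on library siGFP 3: without that library the median was 0.51, and 0.01 with the block.

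Slmap had 148, 55.4 and 122 CPM in siTj cells and 227, 188 and 158 CPM in siGFP cells. All siTj values lay below all siGFP values, and the blocked log2 fold change was -0.95 (SE 0.35) with an adjusted p of 0.156 in edgeR. Tim17b had 304, 181 and 268 CPM in siTj cells and 478, 380 and 638 CPM in siGFP cells, also with no overlap (log2 fold change -0.96, SE 0.44, with an adjusted p of 0.250 in edgeR). CG40178 had 26.9, 63.2 and 33.4 CPM in siTj cells and 13.7, 18.4 and 19.5 CPM in siGFP cells, likewise with no overlap. Over exon parts the values were 2.45, 2.38 and 5.30 CPM in siTj cells and 1.36, 1.05 and 5.11 CPM in siGFP cells, which overlapped, and 92.1% of its OSS reads lay outside exons. Its log2 fold change over the locus was 1.10 (SE 0.47) with an adjusted p of 0.222 in edgeR. Groups without overlap were thus found for 4 of 53 pericentric genes (also CG43968), against 15.0% of all genes tested (8.5% above and 6.5% below). Parp had 73.9, 51.8 and 99.4 CPM in siTj cells and 98.7, 87.4 and 201 CPM in siGFP cells, which overlapped. The lt level was 33.7, 29.8 and 40.5 CPM in siTj cells and 34.5, 30.8 and 66.8 CPM in siGFP cells, which overlapped too (log2 fold change -0.25, 95% interval -0.95 to 0.45).

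After knockdown of piwi, 0.0% of all genes tested and 0 of 53 pericentric genes were called by edgeR, with or without the block. At an unadjusted p under 0.05 there were 0 pericentric genes without the block and 2 with it, against 63 (0.587%) and 243 (2.27%) of 10724 genes. DESeq2 called 2 genes (0.0196%) without the block and 9 (0.112%) with it, none of them pericentric. The median log2 fold change with the block was -0.20, against 0.0062 for all genes, and without the block 20 of 53 were positive, against 52.8% of all genes. The median was 0.80 without siGFP 3 in the fit with no block, and -0.73 without siPiwi 3. The lt level was 35.6, 20.8 and 51.6 CPM in siPiwi cells, and nvd had 1.44, 23.6 and 0.376 CPM in siPiwi cells against 1.11, 1.68 and 0.377 CPM in siGFP cells. Only siPiwi 2 stood above all siGFP libraries for nvd, and its exon parts held 0.848 CPM. No pericentric gene had groups without overlap, against 1.84% of all genes (1.27% above and 0.569% below). With siTj 2 and siPiwi 2 both left out, 6 of 52 pericentric genes had a positive log2 fold change after piwi knockdown (median -0.25), against 44.2% of all genes. After traffic jam knockdown 4 of 52 were positive (median -0.55), against 41.98% of all genes. With the block these counts were 14 of 52 in both comparisons (medians -0.21 and -0.39), against 46.7% of all genes for piwi and 47.2% for traffic jam. No pericentric gene was called by edgeR in any of these 4 fits.

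After knockdown of ci, again 0 of 53 pericentric genes were called by edgeR, against 0.0% of all genes, with or without the block. At an unadjusted p under 0.05 there were 1 pericentric gene without the block and 6 with it, against 83 (0.774%) and 412 (3.84%) of 10724 genes. DESeq2 called 0 genes without the block and 2 (0.0186%) with it, none of them pericentric. Without the block 13 of 53 had a positive log2 fold change, against 49.5% of all genes. With the block, 44 of 53 had a negative log2 fold change, with a median of -0.52 against -0.04 for all genes. Parp had 34.4, 54.2 and 109 CPM in siCi cells and 98.7, 87.4 and 201 CPM in siGFP cells, which edgeR gave a log2 fold change of -0.98 with an SE of 0.28 and an adjusted p of 0.920. For CG17514, the vital locus l(3)80Fj in RefSeq, the values were 104, 89.5 and 128 CPM in siCi cells and 215, 129 and 201 CPM in siGFP cells. All siCi values lay below all siGFP values for CG17514, alpha-Cat and CR43242, 3 of 53 genes, against 2.83% of all genes below and 2.02% above (4.86% in all). The 3 knockdowns share the same siGFP libraries, so their values are not independent of each other. A library-wide feature was common to them: the libraries numbered 3 held the most reads of the shorter pericentric loci in every group, with 2330, 3087, 2823 and 4066 CPM for siTj, siPiwi, siCi and siGFP.

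**Figure D4:**
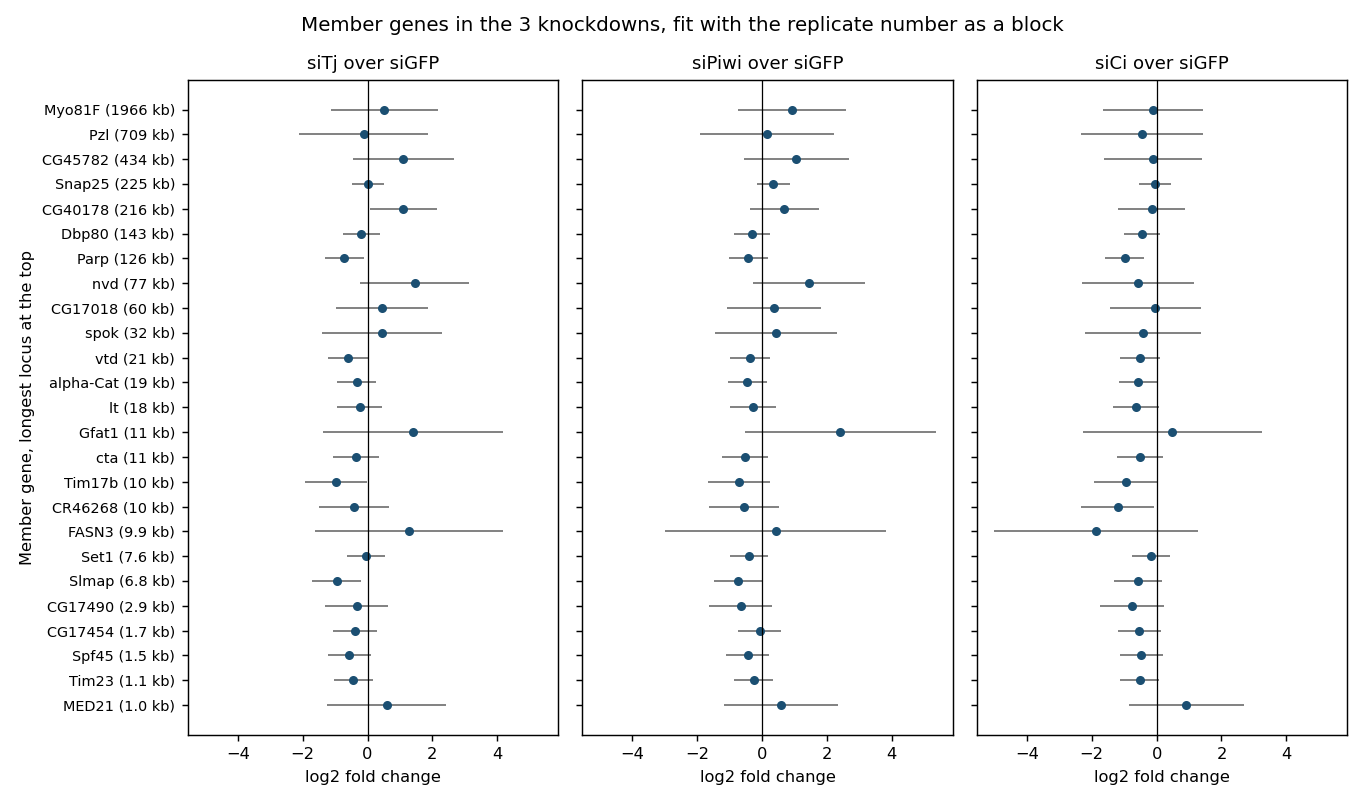
The log2 fold change with its 95% interval of the named pericentric genes in each knockdown over siGFP, from the fit that blocks on replicate number. Genes run from the longest locus at the top, with its length in kb, to the shortest. Most intervals include 0, and none of the genes passed an adjusted p of 0.05.

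A list of genes that act in heterochromatin was measured alongside. Not all of them build it, since Kdm4A, Kdm4B, JIL-1 and Mi-2 were listed too. The list also holds piwi, the target of siPiwi. Of 28 listed genes, siTj cells had 4 lower and 0 higher in edgeR with the block, against a background of 1.45% lower. These were piwi, the HP1a gene, nxf2 (a partner of Piwi in nuclear silencing) and mael (a piRNA pathway factor). Their log2 fold changes were -1.998 (SE 0.38), -0.93 (SE 0.22), -1.69 (SE 0.21) and -2.03 (SE 0.22). Without the block only mael passed. In siPiwi and siCi cells 0 of 28 passed, and in mutant ovaries 0 of 27, where all 27 had a negative log2 fold change with a median of -0.49, against 45.0% of all genes positive. In the same libraries, germline markers summed to 392.45 to 2120 CPM in mutant and 1448 to 5056 CPM in wild-type ovaries, somatic markers to 75.5 to 387 CPM in mutant and 208 to 523 CPM in wild-type ovaries, and muscle markers to 441 to 2816 CPM in mutant and 179.7 to 2227 CPM in wild-type ovaries. The somatic sum includes flam, and the series describes the mutant strains as carrying deletions in the flamenco promoter region. Of the 3 somatic markers, 1 had a positive and 2 had a negative log2 fold change. The part of these markers was not tested. Between siGFP OSS cells and wild-type ovary, 9 of 27 were higher and 4 were lower, against 19.5% of all genes higher and 23.9% lower. The median over the list was -0.29 in siTj cells, -0.23 in siPiwi cells and -0.03 in siCi cells, with the block.

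In mutant ovaries 0 of 63 pericentric genes were called against wild type by edgeR with fly line as a block, against 0.0% of 11155 genes. At an unadjusted p under 0.05 there were 2 pericentric genes, Set1 and CG12581, against 1242 (11.1%) of all genes. DESeq2 called 3.11% of genes and 0 pericentric ones. No pericentric gene had mutant values all above or all below the wild types, against 0.269% of all genes (0.224% above and 0.0448% below). The median log2 fold change was -0.20, against -0.07 for all genes, and it stayed between -0.31 and -0.07 when each line was left out. Set1 had 87.9 to 151 CPM (median 115) in mutant ovaries and 117 to 174 CPM (median 160) in wild-type ovaries. It was lower in the mutant in 6 of 6 lines, and edgeR gave it a log2 fold change of -0.40 with an SE of 0.14 and an adjusted p of 0.436. The share of all genes lower in every line was not counted, and 45.0% of all genes had a positive log2 fold change. The lt level was 77.2 to 135 CPM (median 118) in mutant ovaries and 75.7 to 196 CPM (median 128) in wild-type ovaries, and the groups overlapped.

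Single lines departed from the others at a few genes. FASN3 had 494 CPM in the FlamBG mutant and 18.3 CPM in its wild type, and 2351 CPM in the FlamKG mutant and 15.0 CPM in its wild type. In the other 4 lines it had 30.6 to 114 CPM in mutants and 56.1 to 121 CPM in wild types. Nearly all of these reads lay in exon parts, which held 488 and 2343 CPM in the FlamBG and FlamKG mutants. Gfat1 had 53.5 CPM in the FlamBG mutant and 4.70 CPM in its wild type, and 74.6 CPM in the FlamKG mutant and 5.94 CPM in its wild type. Its other lines lay between 3.72 and 10.4 CPM in mutants and 4.90 and 10.9 CPM in wild types. With 1 library per line and genotype, such differences have no replicate check, and over the 6 lines neither gene passed the test (adjusted p = 0.691 and 0.539 in edgeR).

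The FlamBG mutant also had high values at loci whose reads lay mostly outside exons. Snap25 had 580 CPM in the FlamBG mutant and 45.0 CPM in its wild type, and 221 CPM in the FPSE1 mutant and 30.0 CPM in its wild type, while all other ovaries had 15.8 to 55.8 CPM. Its exon parts held 40.8 CPM in the FlamBG mutant and 0.799 CPM in the FPSE1 mutant. Pzl had 360 CPM in the FlamBG mutant and 103 CPM in its wild type, with 261 CPM antisense in the mutant. The spok level was 44.8 CPM in the FlamBG mutant and 2.54 CPM in its wild type, with 9.87 CPM of it in exon parts. Over the 68 genes, 11.8% of unique reads in the FlamBG mutant were antisense, against 3.54% to 6.56% in the other 5 mutants and 3.82% to 5.78% in the wild types. The FlamBG wild type, with 9676965 reads the shallowest ovary library, had the highest share of reads from pericentric genes, 2.38%, against 0.639% to 1.95% in the other wild types.

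**Figure D5:**
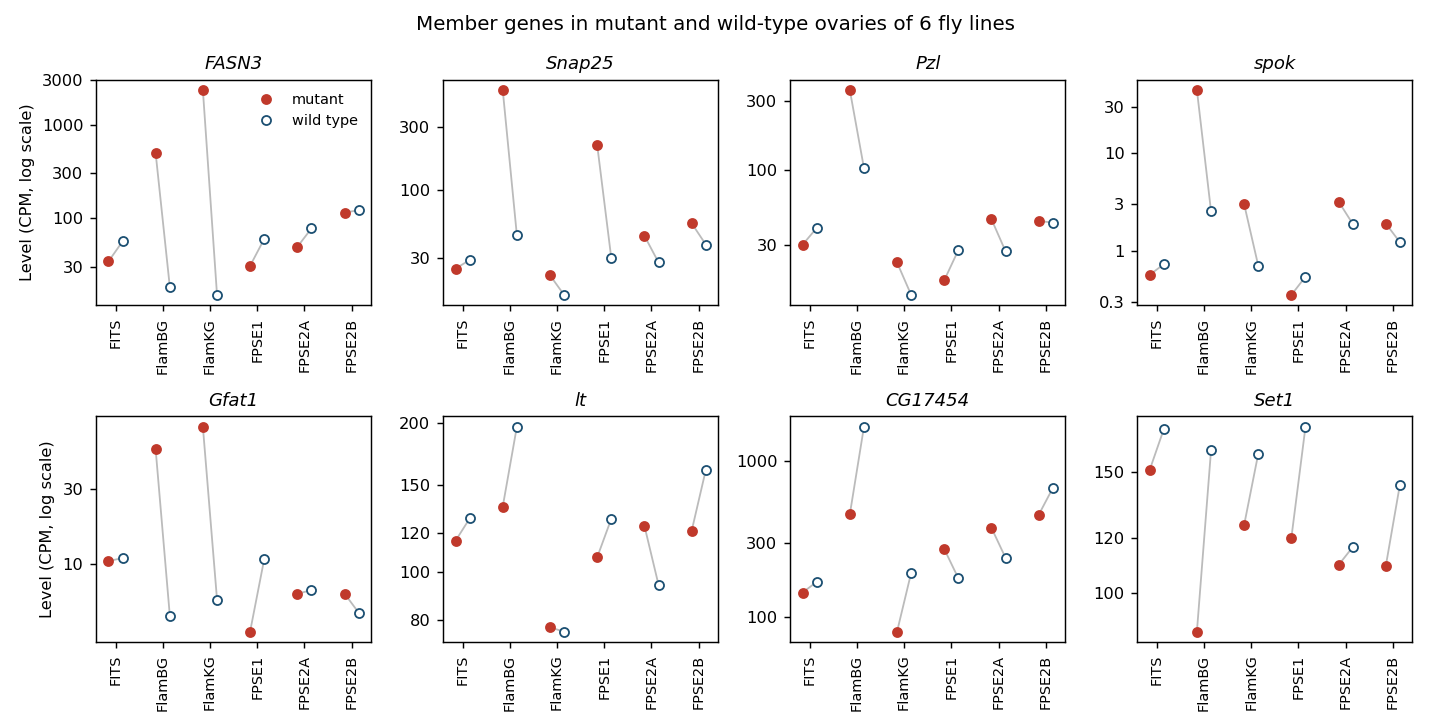
Level in CPM (log scale) of 8 pericentric genes in the mutant (filled) and wild-type (open) ovary library of each of 6 fly lines, joined within a line. FASN3 and Gfat1 are high in the FlamBG and FlamKG mutants, Snap25, Pzl and spok in the FlamBG mutant, and Set1 is lower in the mutant in all 6 lines.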

How the data were processed

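The submitters' processing notes name Bowtie2, DESeq2, FastQC and MACS2, without versions. The long RNA tables deposited by the authors hold whole-number counts of reads per gene, with unique and all positions, sense and antisense, and locus and exon parts in separate columns, per the file headers. The Cut&Run summit lists hold each summit's position and a score that MACS2 writes as −log10 of a q-value, made by the authors. The deposited peak list of TJ holds positions only.

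The genes and lists were chosen with earlier results of these data known. Unique sense counts over the locus were tested with edgeR 4.0.16 (R 4.3.3): filterByExpr by group, TMM scaling, quasi-likelihood test, Benjamini-Hochberg adjustment over all genes. Fits used 12 OSS libraries (group only), 12 ovary libraries (fly line as a block) and 3 siGFP with 6 wild-type libraries. The replicate numbers of the OSS labels paired the samples by the rule that all 18 same-number pairs correlate above 0.1. CPM are on the TMM scale of each fit, and exon and antisense CPM use the same scaling. DESeq2 1.42.0, DESeq2 size factors, no filter, reads of all positions, exon parts and leaving out libraries were alternatives, of which exon parts, leaving out siTj 2 with siPiwi 2, and combinations with the block were chosen after seeing the data. Named genes were those past the threshold (at most 5 in each direction by fold), role lists, the 5 highest per kb in siGFP cells, the 5 with most summits, and the siRNA targets. Others named were chosen after their values were seen. Bounds of 10 genes differ between libraries: mRpS5 was counted over a shorter locus in siTj 1, siPiwi 1 and siPiwi 2 and is not described. The eIF-4B locus counted is shorter than the RefSeq gene. The floor of 3 reads covers counting error only, while intervals and SEs come from the fits and include the spread between libraries.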

Additional observations from a re-analysis of the deposited data

Results flagged for a closer look

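In the 6 mutant and the 6 wild-type ovary libraries, 60 groups of values for the named genes and the read shares were examined. Of these, 12 held 1 library far from the rest by Dixon's test. That test flags about 1 in 20 independent groups of normally distributed values. The groups here share libraries and hold CPM without a log, so the 12 flags cannot be set against that rate. Mutant FlamBG was high for spok (44.8 CPM, others 0.353 to 3.21), Pzl (359.9 CPM, others 17.1 to 45.4), Myo81F (338.4 CPM, others 88.5 to 179.9), Snap25 (579.8 CPM, others 22.4 to 220.8) and the antisense share over pericentric genes (11.8%, others 3.54% to 6.56%). Mutant FlamKG was high for FASN3 (2351 CPM, others 30.6 to 494) and low for CR46268 (42.0 CPM, others 65.3 to 79.3). Wild-type FlamBG was high for CG17454 (1665 CPM, others 169 to 675), CG17490 (198.1 CPM, others 56.3 to 86.7), CR46268 (229.5 CPM, others 66.4 to 105.3), Pzl (102.9 CPM, others 13.5 to 43.0) and CG45782 (56.3 CPM, others 23.6 to 35.7). Of these 12, 10 fall in the 2 libraries of the FlamBG line. CG17490 and CR46268 overlap, so their flags are not separate. Why these libraries stand apart was not tested.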

How the results depend on the processing

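In siTj cells DESeq2 with the replicate block called 1 gene (Slmap) and edgeR 0 with or without that replicate block. Leaving out each library gave 0 calls in every knockdown and in mutant ovaries, and 35 to 45 between siGFP cells and wild-type ovary. There the count of higher genes was 1, but 3 with reads of all positions, 2 without wild-type FlamBG and 0 with exon parts. The median log2 fold change moved more: over the libraries left out, it ranged from -0.64 to 0.51 in siTj cells, -0.73 to 0.80 in siPiwi cells, -0.75 to -0.02 in siCi cells, -0.31 to -0.07 in mutant ovaries and -3.16 to -2.13 between siGFP cells and wild-type ovary. The highest value in the first 2 came without siGFP 3. In the paired fit (replicate block) the medians were -0.30, -0.20 and -0.52 for siTj, siPiwi and siCi. Without siGFP 3 this paired fit gave 0.0053 for siTj and 0.20 for siPiwi, and without siTj 3 it gave -0.074 for siTj. Without the line block the ovary median was -0.34 with 0 called. Between siGFP cells and wild-type ovary the median was -1.63 with reads of all positions and -3.38 with exon parts, and Parp (0.53), eIF-4B (0.17) and nvd (0.17) turned positive with reads of all positions. The cause was not tested. The number of genes with an H3K9me3 summit in at least 1 untreated library was 42, 32 with summits at or above the median score, 55 with 1 kb added on each side, and 34 or 42 with 1 untreated library. Depth limits the lowest genes: in siGFP cells 3 reads over the group equal 0.0287 CPM. Genes with repeat-rich introns depend on which reads count as unique.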
